A study of Mus musculus with 14 samples.

Results

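The genes described here are 36 mouse genes known as type I interferon response genes, taken from a list of gene symbols. The list was chosen with earlier results of these data known, so counts of its members are descriptions. For each symbol, the value used was that of the microarray probe set annotated to that gene alone, and where a gene had several of them, the 1 that was brightest on average across the 14 arrays. Of the 36 genes, 31 were measured in this way, each by 1 probe set, out of 19937 genes measured in all. The symbols Isg15, Ifi47, Igtp and Gbp2 were found only on probe sets that list several genes, and Ifi44 on none, so these 5 genes have no value here. A gene was tested where 2 or more arrays read above 6.76 on the log2 scale, the level under which 40% of all values lay. This left 30 of the 31 genes among 13641 genes tested, and the untested gene was Mx2.

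Type I interferons are secreted antiviral proteins that bind a cell-surface receptor and act through the kinases Jak1 and Tyk2. These kinases switch on a complex that contains Stat2 and Irf9, which binds interferon-stimulated response elements in promoters and turns on genes that sense foreign nucleic acid, block viral replication and restrain the signal itself. T cells carry the receptor, and a low level of interferon signalling is known in lymphoid organs without infection.

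The study compared C57BL/6 mice labelled ENK KO with wild-type (WT) mice, and its title concerns the homeobox gene Engrailed-2 in chronic myelogenous leukaemia that turns into a T cell disease. The labels do not spell out ENK, name no allele and do not say whether every array came from a different animal, and the p-values rest only on how much these arrays scatter. RNA of cells collected on a FACSAria sorter was hybridised to 14 Affymetrix arrays. They fall into CD4+CD8+ lymphocytes of the thymus, an immature T cell stage, from WT (arrays 7, 32 and 38) and ENK KO (1 and 29) mice, and CD8+ lymphocytes of the spleen from WT (22, 34, 37 and 40) and ENK KO (3, 6, 25, 28 and 31) mice. All WT arrays came from mice of 7 months. Thymus ENK KO 1 and spleen ENK KO 3 and 6 came from females of 2 months, thymus ENK KO 29 and spleen ENK KO 31 from males of 7 months, spleen ENK KO 28 from a male of 6 months and spleen ENK KO 25 from a male of 9 months. Thymus WT 7 and spleen WT 22 are labelled female and the other WT arrays male. Age, sex and genotype are therefore partly bound together.

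The mean log2 level over 6 markers of CD4+CD8+ thymocytes lay between 11.09 and 11.21 on the thymus arrays and between 6.32 and 6.58 on the spleen arrays. The array labelled spleen ENK KO 28 had Cd8a at 6.78, where every other spleen array read 12.06 to 12.53, and Cd4 at 12.20, where the others read 6.61 to 6.92, with Foxp3 at 9.87 and Il2ra at 11.14. The library labelled spleen ENK KO 28 thus carried CD4 and regulatory T cell transcripts in place of CD8. The main counts of members called, with the members it moves most, are also given without it. Some other counts that use it, such as those over genes above the filter level in both tissues, are given only with it. On spleen WT 22, which is labelled female, Xist, the RNA that silences an X chromosome, read 5.90 and the Y-linked gene Kdm5d at 9.85, within 0.20 of the other spleen WT arrays, so its levels went against that label. Array medians lay between 7.14 and 7.25 on the log2 scale.

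Many interferon-stimulated promoters carry the response element bound by the complex of Stat2 and Irf9, and the windows of a few members show what that looks like. Promoter windows of 300 bases, from 250 before to 50 after the annotated transcript start, were taken from RefSeq on GRCm38.p6 and were found for 27 of the 36 genes. The motif searched was GAAA, any 2 bases and GAAA again, on both strands and with overlapping matches counted. It is shown in capitals, and where it lies on the other strand it reads as TTTC, 2 bases and TTTC. Ifit3 and Ifit1, which lie on chromosome 19 with 3 genes between them, are shown because each window holds a pair of matches and both genes differed widely between the tissues. Irgm1 is shown for overlapping matches close to the start, Stat2 because it is a member that was lower in spleen, and Samhd1 because it had the widest difference and no match in its window. The windows are chr19:34583279-34583578 on the plus strand for Ifit3, chr19:34640639-34640938 on the plus strand for Ifit1, chr11:48871371-48871670 on the minus strand for Irgm1, chr10:128270248-128270547 on the plus strand for Stat2 and chr2:157135047-157135346 on the minus strand for Samhd1.
Ifit3: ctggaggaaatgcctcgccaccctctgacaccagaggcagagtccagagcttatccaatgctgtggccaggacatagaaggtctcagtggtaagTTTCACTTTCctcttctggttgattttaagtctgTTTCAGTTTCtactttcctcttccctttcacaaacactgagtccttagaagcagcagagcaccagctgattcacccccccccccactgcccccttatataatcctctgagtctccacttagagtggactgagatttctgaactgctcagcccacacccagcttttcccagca
Ifit1: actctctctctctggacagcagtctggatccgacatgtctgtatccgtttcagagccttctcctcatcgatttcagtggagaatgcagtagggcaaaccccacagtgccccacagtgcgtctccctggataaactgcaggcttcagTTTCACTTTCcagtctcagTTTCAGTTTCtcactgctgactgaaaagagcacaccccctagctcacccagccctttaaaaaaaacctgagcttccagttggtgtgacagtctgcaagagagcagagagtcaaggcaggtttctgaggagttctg
Irgm1: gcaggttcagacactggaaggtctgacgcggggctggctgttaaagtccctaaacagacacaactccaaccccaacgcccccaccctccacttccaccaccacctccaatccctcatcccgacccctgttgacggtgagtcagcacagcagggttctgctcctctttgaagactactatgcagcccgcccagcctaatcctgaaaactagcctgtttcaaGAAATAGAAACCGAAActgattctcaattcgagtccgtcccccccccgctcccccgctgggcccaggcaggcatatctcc
Stat2: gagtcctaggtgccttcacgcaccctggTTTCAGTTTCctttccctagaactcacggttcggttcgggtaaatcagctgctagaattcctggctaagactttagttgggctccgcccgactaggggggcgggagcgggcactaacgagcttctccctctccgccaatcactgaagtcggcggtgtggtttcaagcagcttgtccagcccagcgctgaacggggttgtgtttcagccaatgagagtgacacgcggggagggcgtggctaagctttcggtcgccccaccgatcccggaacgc
Samhd1: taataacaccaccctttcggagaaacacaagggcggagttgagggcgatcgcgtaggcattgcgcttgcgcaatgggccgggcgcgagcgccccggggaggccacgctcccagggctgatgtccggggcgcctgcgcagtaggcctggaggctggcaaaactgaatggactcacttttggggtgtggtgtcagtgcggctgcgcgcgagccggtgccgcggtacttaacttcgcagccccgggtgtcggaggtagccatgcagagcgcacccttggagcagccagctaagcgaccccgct

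The motif lay in the windows of 14 of the 27 genes (51.9%), against 1079 of 27025 genes with a window in the same table (3.99%). The first match began 156 bases before the start in Ifit3, 104 in Ifit1, 30 in Irgm1 and 222 in Stat2. The other members with a match were Isg15, Oas3, Rsad2, Bst2, Ddx58, Eif2ak2, Ifih1, Gbp2, Gbp3 and Igtp. Among the tested members, the 11 with a match had a median spleen-minus-thymus difference in WT of 1.21 on the log2 scale, with a range from -0.51 to 2.81, and the 11 without one had a median of 1.05, with a range from -0.29 to 5.36. These are letters in a window and not measured binding sites, and a window without them says nothing of more distant sequence.

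Interferon response genes were mostly higher in the CD8+ spleen cells than in the CD4+CD8+ thymus cells of WT mice. Of the 30 members tested, 26 were higher, 2 were lower (Stat2 and Trim25) and 2 did not pass (Ifit2 and Dtx3l) in limma at an adjusted p of 0.05. Over all tested genes the same test called 68.6% of genes, 30.5% higher and 38.2% lower. The median log2 difference was 1.09 over the members and -0.04 over all tested genes. In ENK KO mice, 27 members were higher, 1 was lower (Stat2) and 2 did not pass (Dtx3l and Trim25), where 64.4% of all tested genes were called, 27.4% higher and 37.1% lower. The median there was 1.15 over the members and -0.06 over all tested genes.

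Part of this count follows from how genes entered the test. Dhx58, Ifit3, Mx1 and Cmpk2 lay under the filter level on every thymus array, and Ifit1, Rsad2 and Samhd1 were above it on 1 thymus array each, so these 7 members entered only because they were high in spleen. No detection call was used here, and their thymus values were not shown to be above background. Their differences are therefore given as measured, with no fold and no p-value. For the other 23 members, which were above the filter level on at least 2 arrays of each tissue, 19 were higher, 2 lower and 2 not called in WT, a share of 82.6% higher. Among the 12045 genes that met the same condition, 27.7% were higher and 39.0% lower. In ENK KO, 20 of the 23 members (87.0%) were higher, against 25.0% of those genes. Taking all 14 arrays, 26 of the 30 members were higher on every spleen array than on every thymus array, as were 24.4% of all tested genes. The 26 include the 7 members that entered only because they were high in spleen, so the filter itself favoured their separation. The 24.4% is over all tested genes and not over those above the filter level in both tissues. Stat2 was lower on every spleen array, and Dtx3l, Trim25 and Rtp4 overlapped between the tissues. The comparison is between different sorted populations of T cells as well as between organs, and these cannot be told apart. In such bulk RNA, fewer cells of a type and less RNA per cell cannot be told apart either.

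**Figure D1:**
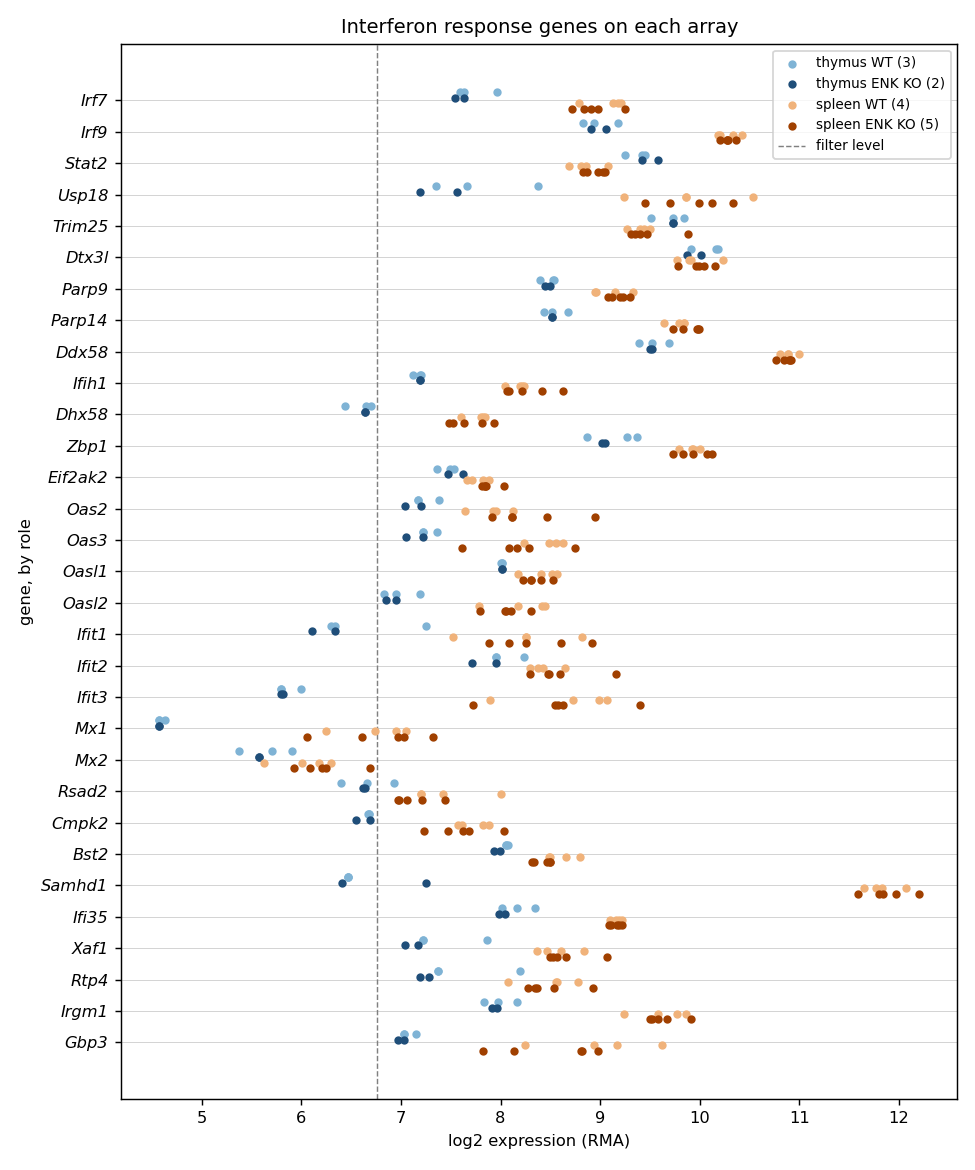
Log2 expression (RMA) of the 31 measured interferon response genes on each of the 14 arrays, ordered by role, with thymus arrays in blue and spleen arrays in orange and brown, and the filter level of 6.76 as a dashed line. Samhd1 lies between 6.41 and 7.26 on the thymus arrays and between 11.59 and 12.21 on the spleen arrays, while Dtx3l overlaps between the tissues.

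Transcriptional regulators of the response went in different directions. Irf7, which drives production of type I interferon and many response genes, read 7.96, 7.63 and 7.59 on thymus WT 7, 32 and 38 and 7.63 and 7.54 on thymus ENK KO 1 and 29. In spleen it read 8.78, 9.13, 9.21 and 9.18 on WT 22, 34, 37 and 40, and 8.84, 8.72, 9.25, 8.91 and 8.98 on ENK KO 3, 6, 25, 28 and 31. All spleen arrays lay above all thymus arrays, by a mean of 1.35 ± 0.13 (log2, standard error) or 2.54-fold in WT (limma adjusted p = 1.26e-06) and 1.35 ± 0.15 in ENK KO (adjusted p = 3.57e-06). Irf9, the DNA-binding subunit of the complex with Stat2, was higher in spleen by 1.31 ± 0.08 in WT and 1.30 ± 0.09 in ENK KO.

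Stat2, the partner of Irf9 that carries the activating domain, went the other way. It read 9.42, 9.25 and 9.45 on the thymus WT arrays and 9.59 and 9.42 on the thymus ENK KO arrays. The spleen values were 8.69, 8.81, 8.86 and 9.08 in WT and 9.03, 8.87, 9.05, 8.98 and 8.83 in ENK KO, in the array order given above. No spleen array reached a thymus array, and the mean was lower by 1.43-fold in WT (log2 difference -0.51 ± 0.09, limma adjusted p = 0.000249) and by 1.46-fold in ENK KO (-0.55 ± 0.10, adjusted p = 0.000338).

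The genes for ISG15, ubiquitin and ADP-ribose conjugation split by gene. Usp18, the protease that removes ISG15 and also blocks the interferon receptor, read 7.66, 8.38 and 7.35 on the thymus WT arrays and 7.56 and 7.19 on the thymus ENK KO arrays. On the spleen arrays it read 9.24, 9.86, 10.54 and 9.86 in WT and 9.70, 9.45, 10.33, 9.995 and 10.13 in ENK KO. The tissues did not overlap, and the spleen mean was 4.23-fold higher in WT (2.08 ± 0.30, limma adjusted p = 4.36e-05) and 5.84-fold higher in ENK KO (2.55 ± 0.33, adjusted p = 1.90e-05). Parp14, a mono-ADP-ribosyltransferase, rose from 8.52, 8.68 and 8.43 on the thymus WT arrays to 9.64, 9.79, 9.85 and 9.85 on the spleen WT arrays. Its ENK KO values were 8.52 and 8.52 in thymus and 9.97, 9.98, 9.99, 9.83 and 9.74 in spleen, so that the spleen mean was 2.36-fold higher in WT and 2.61-fold higher in ENK KO.

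Parp9 and its partner Dtx3l, a ubiquitin ligase, lie side by side on chromosome 16 with Parp14 on the other side of Dtx3l. Parp9 was higher in spleen by 0.61 ± 0.09 in WT and 0.71 ± 0.10 in ENK KO. Dtx3l was not called, with a difference of -0.14 (95% interval -0.38 to 0.11) in WT and 0.04 (-0.22 to 0.31) in ENK KO. Trim25, a ubiquitin ligase that acts on the sensor encoded by Ddx58, had a difference of -0.29 in WT (95% interval -0.55 to -0.03, limma adjusted p = 0.0477) and -0.25 in ENK KO (-0.54 to 0.04, adjusted p = 0.117). Its WT call was lost when any of 9 single arrays was left out, and spleen ENK KO 25, at 9.88, was the single spleen array above thymus WT 38 at 9.84. Without spleen ENK KO 25 its ENK KO difference was -0.35 (adjusted p = 0.00439).

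All 5 nucleic acid sensors were higher in spleen, in both genotypes. Ddx58, which encodes the RNA helicase RIG-I, read 9.52, 9.69 and 9.39 on the thymus WT arrays and 9.50 and 9.52 on the thymus ENK KO arrays. The spleen values were 10.81, 10.89, 10.89 and 11.00 in WT and 10.92, 10.76, 10.91, 10.89 and 10.85 in ENK KO. These 9 arrays lay within 0.24 of each other and all above thymus, by 1.36 ± 0.07 in WT (2.57-fold, limma adjusted p = 2.23e-09) and 1.36 ± 0.08 in ENK KO. Its relatives Dhx58 (encoding LGP2) and Ifih1 (encoding MDA5) were higher by 1.17 ± 0.11 and 1.00 ± 0.11 in WT.

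Zbp1, a sensor of left-handed nucleic acid that can start cell death, was higher by 0.74 ± 0.12 in WT and 0.91 ± 0.13 in ENK KO. Eif2ak2, the kinase PKR that stops translation on double-stranded RNA, had the smallest difference of these sensors, 0.31 ± 0.07 in WT and 0.33 ± 0.08 in ENK KO.

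The OAS family, whose enzymes make the oligoadenylate that activates RNase L, was higher throughout. Oasl2 and Oas3 had the widest differences of the family in WT, both 1.21. Oasl2 read 6.95, 7.19 and 6.83 on the thymus WT arrays and 6.95 and 6.85 on the thymus ENK KO arrays. Spleen values were 7.78, 8.17, 8.44 and 8.42 in WT and 8.05, 7.79, 8.30, 8.11 and 8.05 in ENK KO. Every spleen array was above every thymus array, with a mean difference of 1.21 ± 0.15 in WT (limma adjusted p = 1.27e-05) and 1.16 ± 0.17 in ENK KO. Its neighbour Oasl1, an OAS-like protein known to limit Irf7 translation, differed by 0.41 ± 0.09 and 0.34 ± 0.10.

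Oas2 and Oas3 are neighbours on chromosome 5. Oas2 read 7.17, 7.38 and 7.17 in thymus WT and 7.20 and 7.04 in thymus ENK KO. Its spleen readings were 7.64, 7.95, 7.93 and 8.12 in WT and 8.12, 8.12, 8.95, 8.46 and 7.92 in ENK KO. Spleen ENK KO 25 and 28 were the highest, and the spleen excess was 0.67 ± 0.20 in WT (limma adjusted p = 0.00866) and 1.19 ± 0.22 in ENK KO (adjusted p = 0.000326). Oas3 was higher in spleen by 1.21 ± 0.19 in WT and 1.04 ± 0.21 in ENK KO, or 1.18 without the library labelled spleen ENK KO 28.

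Among the IFIT genes on chromosome 19, which encode proteins that bind viral RNA, Ifit3 differed most. It read 6.00, 5.79 and 5.79 in thymus WT and 5.82 and 5.79 in thymus ENK KO, all under the filter level. In the spleen groups it read 7.89, 8.73, 8.99 and 9.07 in WT and 8.55, 8.58, 9.41, 7.72 and 8.63 in ENK KO. The measured difference was 2.81 ± 0.33 in WT and 2.77 ± 0.36 in ENK KO (2.98 without the library labelled spleen ENK KO 28), and the spleen arrays themselves spanned 1.68, from ENK KO 28 to ENK KO 25.

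Ifit1 read 6.30, 7.25 and 6.33 in thymus WT and 6.33 and 6.11 in thymus ENK KO. Spleen arrays gave 7.52, 8.26, 8.26 and 8.82 in WT and 8.60, 7.88, 8.92, 8.09 and 8.26 in ENK KO. Thymus WT 32 stood 0.91 above the next thymus array and 0.27 below spleen WT 22, the lowest spleen array. The measured difference was 1.59 ± 0.32 in WT and 2.13 ± 0.35 in ENK KO.

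Ifit2, which lies next to Ifit3, differed least. It read 8.24, 7.95 and 7.95 in thymus WT and 7.72 and 7.95 in thymus ENK KO, and in spleen 8.30, 8.42, 8.38 and 8.65 in WT and 8.48, 8.29, 8.60, 9.16 and 8.48 in ENK KO. All spleen values lay above all thymus values, the nearest by 0.06. In WT the difference of 0.39 (95% interval 0.03 to 0.75) did not pass (limma adjusted p = 0.0532), whereas in ENK KO 0.77 (0.37 to 1.16) did (adjusted p = 0.00253). Without the library labelled spleen ENK KO 28, which had the highest Ifit2 value, the WT difference of 0.39 passed (adjusted p = 0.00493), since limma estimates 1 spread over all groups, and the ENK KO difference was 0.63 (0.37 to 0.88).

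Samhd1, an enzyme that destroys the deoxynucleotides needed for reverse transcription and DNA synthesis, had the largest tissue difference of all members in both genotypes. It read 6.47 on each of the 3 thymus WT arrays, 7.26 on thymus ENK KO 1 and 6.41 on thymus ENK KO 29. The spleen values were 11.77, 11.65, 11.83 and 12.08 in WT and 11.97, 11.85, 11.59, 12.21 and 11.80 in ENK KO. The spleen arrays lay at least 4.33 above any thymus array, and the measured difference of means was 5.36 ± 0.18 in WT and 5.05 ± 0.20 in ENK KO. Identical values on several arrays, as for Samhd1 in thymus WT, occurred in 19 of the 30 members over the thymus arrays and in 65.7% of all tested genes.

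The remaining antiviral effectors were higher in spleen too. Mx1, a dynamin-like GTPase that traps viral nucleocapsids, read 4.63, 4.57 and 4.57 in thymus WT and 4.57 and 4.57 in thymus ENK KO. In spleen it read 6.25, 6.74, 7.05 and 6.95 in WT and 6.97, 6.61, 7.32, 6.06 and 7.03 in ENK KO. The tissues did not overlap, with a measured difference of 2.16 ± 0.25 in WT and 2.23 ± 0.27 in ENK KO (2.41 without the library labelled spleen ENK KO 28). Its untested relative Mx2 lay between 5.37 and 5.90 in thymus and between 5.63 and 6.69 in spleen.

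Rsad2, which encodes the antiviral enzyme viperin, and its neighbour Cmpk2, a mitochondrial nucleotide kinase, lie next to each other on chromosome 12. Rsad2 read 6.40, 6.93 and 6.66 in thymus WT and 6.64 and 6.62 in thymus ENK KO, against 7.20, 7.42, 7.20 and 8.003 in spleen WT and 6.97, 7.44, 7.06, 6.98 and 7.21 in spleen ENK KO. The lowest spleen array lay 0.04 above thymus WT 32, and the measured difference was 0.80 ± 0.18 in WT and 0.50 ± 0.20 in ENK KO. Rsad2 entered the test only because it was high in spleen, so its ENK KO call is not read as a result. That call was also lost without any of 7 single arrays. Cmpk2 was higher by 1.05 ± 0.14 in WT and 0.99 ± 0.16 in ENK KO, and Bst2, the tether that holds budding virus at the cell surface, by 0.55 ± 0.07 and 0.46 ± 0.08.

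Xaf1, a partner of the apoptosis inhibitor XIAP, read 7.22, 7.87 and 7.22 in thymus WT and 7.04 and 7.17 in thymus ENK KO. On the spleen arrays it read 8.37, 8.46, 8.60 and 8.84 in WT and 8.65, 8.52, 9.07, 8.57 and 8.50 in ENK KO. Spleen exceeded thymus on every array, by 1.13 ± 0.17 in WT (limma adjusted p = 7.42e-05) and 1.56 ± 0.19 in ENK KO (adjusted p = 1.14e-05). Ifi35, an interferon-induced leucine zipper protein, was higher by 0.99 ± 0.07 in WT and 1.14 ± 0.07 in ENK KO.

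Rtp4, a chaperone of membrane receptors, overlapped between the tissues through thymus WT 32. It read 7.37, 8.19 and 7.37 in thymus WT and 7.28 and 7.19 in thymus ENK KO, and in spleen 8.07, 8.56, 8.57 and 8.78 in WT and 8.53, 8.35, 8.93, 8.28 and 8.37 in ENK KO. The spleen mean was higher by 0.85 ± 0.22 in WT (limma adjusted p = 0.00356) and 1.26 ± 0.24 in ENK KO (adjusted p = 0.000456).

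The interferon-induced GTPases, which act against vacuolar pathogens and also answer to interferon gamma, were represented by Irgm1 and Gbp3. Irgm1 read 7.98, 8.17 and 7.83 in thymus WT and 7.96 and 7.92 in thymus ENK KO. Spleen values were 9.59, 9.25, 9.78 and 9.86 in WT and 9.67, 9.52, 9.91, 9.50 and 9.58 in ENK KO, above every thymus array. The spleen mean was 3.09-fold higher in WT (limma adjusted p = 3.07e-07) and 3.24-fold higher in ENK KO (adjusted p = 6.10e-07).

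Gbp3 read 7.03, 7.15 and 7.03 in thymus WT and 6.97 and 7.03 in thymus ENK KO, within 0.18 of each other. Its spleen readings were 8.94, 9.62, 9.17 and 8.25 in WT and 8.13, 7.82, 8.82, 8.80 and 8.98 in ENK KO, a span of 1.80 that was the widest of all members. The spleen excess was 1.92 ± 0.31 in WT (3.79-fold, limma adjusted p = 9.96e-05) and 1.51 ± 0.34 in ENK KO (adjusted p = 0.00155).

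**Figure D2:**
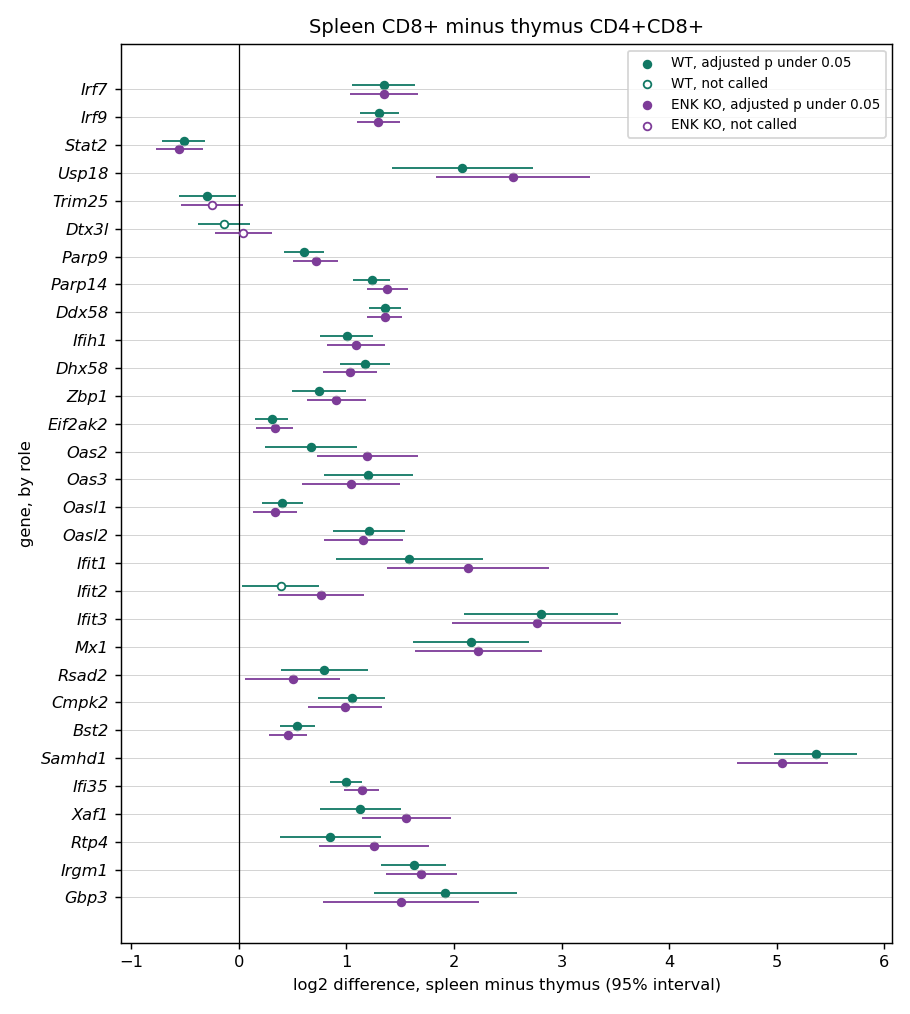
Log2 difference of spleen CD8+ minus thymus CD4+CD8+ arrays for the 30 tested members, in WT (green) and ENK KO (purple), as limma estimates with 95% intervals, filled where the adjusted p was under 0.05. Samhd1 stands at 5.36 in WT and 5.05 in ENK KO, and Stat2 lies under 0 in both genotypes. Dhx58, Ifit3, Mx1, Cmpk2, Ifit1, Rsad2 and Samhd1 entered only because they were high in spleen, so their fills are not read as results.

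Other genes of the pathway showed a mixed picture between the tissues in WT. The counts stand beside the 30.5% of all tested genes called higher and the 38.2% called lower in this comparison. A list of interferon receptor genes, kinase genes and Stat3 had 8 genes tested. Of these, 4 were higher in spleen (Ifnar2 by 0.59, Jak1 by 0.79, Tyk2 by 1.08 and Stat3 by 0.40). The 2 lower genes, Ifngr1 at -0.98 and Jak2 at -0.33, are not among the type I receptor chains and kinases named here. Ifnar1, the other chain of the type I receptor, had a difference of -0.01 (95% interval -0.27 to 0.24). Of 11 tested genes that sense nucleic acid or relay the signal to interferon genes, 7 were higher and 2 lower in WT. Those lower were Irf3 at -0.37 and Trim56 at -0.38. In ENK KO, 5 were higher, 1 was lower (Irf3) and 5 were not called, Trim56 at -0.06 among them. Over all tested genes, the shares called in ENK KO were 27.4% higher and 37.1% lower. Sting1, the adaptor for cytosolic DNA, read 7.77 to 8.15 on the thymus arrays and 10.84 to 11.38 on the spleen arrays, 8.87-fold higher in WT.

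Interferon genes themselves were low or little different, apart from Ifng. Of 15 measured, 9 did not pass the filter, Ifnb1 among them at 5.34 to 6.13. Of the 6 tested, Ifng, Ifna2 and Ifnl2 were higher in spleen in WT, by 2.85, 0.32 and 0.21. In ENK KO, Ifng and Ifna9 were higher (2.40 and 0.23), Ifna14 was lower (-0.15), and Ifna2 (0.07) and Ifnl2 (0.003) were not called. Ifng was under the filter level on every thymus array, so it entered the test only because it was high in spleen. Ifng, the gene for interferon gamma, read 6.51, 6.59 and 6.61 in thymus WT and 6.38 and 6.51 in thymus ENK KO. In the spleen groups it read 8.77, 9.53, 10.25 and 9.13 in WT and 7.57, 8.46, 9.37, 8.62 and 10.17 in ENK KO, above every thymus array. Of 10 further genes, the feedback genes and repressors with Isg20, 8 were higher and 2 lower in WT. Those lower were Socs1, which inhibits the Jak kinases, at -0.89 and Pias1 at -0.14. In ENK KO, 7 were higher, 1 was lower (Socs1) and 2 were not called (Pias1 and Isg20). Over all tested genes, 27.4% were higher and 37.1% lower there. Among the other Irf genes, Irf1 was 3.97-fold and Irf8 1.90-fold higher in WT, while Irf4 was not called (0.89, 95% interval -0.03 to 1.80).

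No member was called between ENK KO and WT in either tissue. In thymus, limma called 0 of 30 members, and 0 at an unadjusted p under 0.05, where 2 of all tested genes (0.0147%) passed at an adjusted p under 0.05 and 481 (3.53%) at the unadjusted one. The difference was above 0 for 8 members and below 0 for 22, where 45.1% of all tested genes lay above 0. Its median was -0.06, against a median of 0.00 over all tested genes. The 30 include 7 members above the filter level on no thymus array or 1, Ifit1 and Samhd1 among them. The thymus values of these 7 were not shown to be above background. The members farthest from 0 were Usp18 at -0.42 (95% interval -1.20 to 0.36), Rtp4 at -0.41 (-0.97 to 0.15), Ifit1 at -0.41 (-1.22 to 0.41), Samhd1 at 0.36 (-0.10 to 0.82) and Xaf1 at -0.33 (-0.78 to 0.12).

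In Usp18, Ifit1, Xaf1 and Rtp4 the highest thymus array was WT 32, and the other WT arrays lay within 0.16 of an ENK KO array. Xaf1, Rtp4 and Bst2 were lower on both ENK KO arrays than on all 3 WT arrays, as were 5.21% of all tested genes. No member was higher on both, where 4.04% of all tested genes were. Bst2 read 8.06, 8.08 and 8.06 in WT and 7.93 and 7.99 in ENK KO. For Samhd1, the ENK KO mean rested on array 1, from a mouse of 2 months, at 7.26, since array 29 at 6.41 lay under the WT arrays. The smaller differences included Irf7 at -0.14, Zbp1 at -0.14, Oas3 at -0.13 and Gbp3 at -0.07. Oas3 read 7.22, 7.36 and 7.22 in WT and 7.05 and 7.22 in ENK KO, and Zbp1 9.37, 9.27 and 8.87 in WT and 9.02 and 9.05 in ENK KO, so that both overlapped.

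In spleen, limma again called 0 of 30 members, where 1 of all tested genes (0.00733%) passed. At an unadjusted p under 0.05 there were 1 member higher (Oas2) and 1 lower (Bst2), against 1142 of all tested genes (8.37%, 3.45% higher and 4.93% lower). It was above 0 for 16 members and below 0 for 14, where 45.0% of all tested genes lay above 0, with a median of 0.02, against -0.01 over all tested genes. In none of the members were the 2 genotypes separated on every array, while 0.894% of all tested genes were higher and 0.814% lower on every ENK KO array. Oas2 differed by 0.40 (95% interval 0.03 to 0.78, limma adjusted p = 0.595), and its highest arrays were ENK KO 25 and 28, while the other 3 ENK KO arrays lay within the WT range. Bst2 read 8.49, 8.65, 8.49 and 8.80 in WT and 8.49, 8.50, 8.47, 8.34 and 8.32 in ENK KO, a difference of -0.19 (-0.33 to -0.04, adjusted p = 0.595).

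Larger differences with wider intervals were seen for Gbp3, at -0.48 (95% interval -1.07 to 0.10), Rsad2, at -0.33 (-0.68 to 0.03), and Oas3, at -0.30 (-0.66 to 0.07). Gbp3 was lowest on ENK KO 3 and 6, from mice of 2 months, and on WT 40. For Rsad2 the WT mean was raised by WT 40 at 8.003. Oas3 read 8.24, 8.62, 8.48 and 8.56 in WT and 8.09, 8.29, 8.75, 7.62 and 8.16 in ENK KO, with its lowest and highest values both in ENK KO. Ifih1 read 8.19, 8.05, 8.24 and 8.21 in WT and 8.06, 8.08, 8.41, 8.63 and 8.21 in ENK KO, a difference of 0.11 (-0.11 to 0.32).

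Leaving out the library labelled spleen ENK KO 28 kept the count of members called in spleen at 0 of 30. The genotype difference in spleen was then above 0 for 18 members. Its median was 0.02, against -0.01 over all tested genes. By unadjusted p, only Bst2 then remained, at -0.17 (limma adjusted p = 0.479), while Oas2 was at 0.36 (adjusted p = 0.521). The difference moved from -0.10 to 0.12 for Ifit3, from 0.05 to 0.23 for Mx1, from -0.30 to -0.16 for Oas3 and from 0.16 to 0.03 for Ifit2. In the tissue comparisons without it, 27 members were higher and 2 lower in WT, where 70.1% of all tested genes were called, and 27 higher and 1 lower in ENK KO, where 65.0% were. Ifit3, Mx1, Oas3 and Ifit2 were the 4 members whose ENK KO difference between the tissues moved by over 0.10, and the median shift over the 30 members was 0.03 in size.

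**Figure D3:**
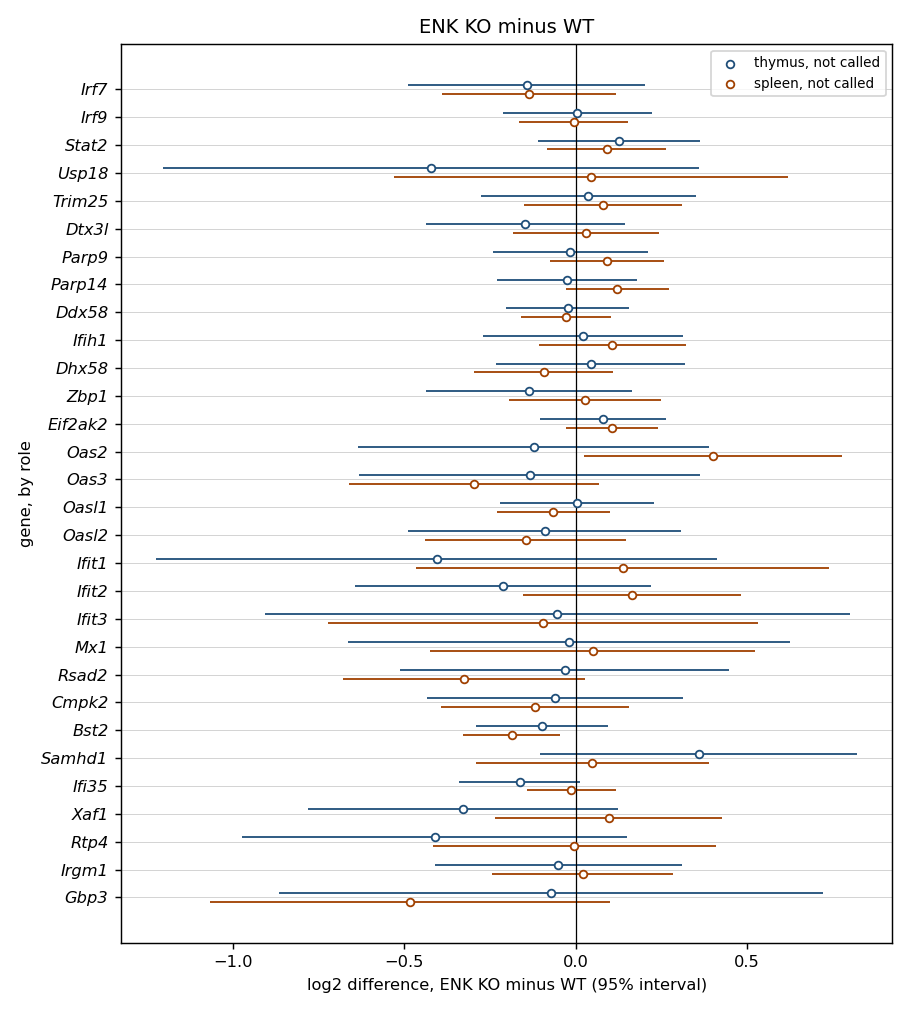
Log2 difference of ENK KO minus WT arrays for the 30 tested members, in thymus (blue) and spleen (brown), as limma estimates with 95% intervals, open circles marking members not called. Intervals run from -1.22 to 0.41 for Ifit1 in thymus and from -1.07 to 0.10 for Gbp3 in spleen, and none of the 30 members was called in either tissue.

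The genotype effect was also compared between the tissues. For spleen minus thymus genotype effects, limma called 0 of 30 members, and 0 at an unadjusted p under 0.05, against 1 (0.00733%) and 408 (2.99%) of all tested genes. The largest values were 0.54 (95% interval -0.47 to 1.56) for Ifit1, 0.52 (-0.11 to 1.16) for Oas2, 0.47 (-0.50 to 1.44) for Usp18 and 0.42 (-0.14 to 0.99) for Xaf1. The intervals reach past 1 in size on the log2 scale in 6 members, Ifit1, Ifit3, Oas2, Usp18, Rtp4 and Gbp3. Without the library labelled spleen ENK KO 28 no member was called either, and the value was 0.61 for Ifit1, 0.49 for Oas2, 0.45 for Usp18 and 0.45 for Xaf1.

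Among the other genes of the pathway, none was called between the genotypes in either tissue by limma. Socs1 had the smallest unadjusted p in thymus, reading 10.04, 10.19 and 9.98 in WT and 9.53 and 9.76 in ENK KO, a difference of -0.42 (limma adjusted p = 0.487). Irf8 had the smallest in spleen, at -0.29 (limma adjusted p = 0.553). It read 8.61, 8.41, 8.54 and 8.60 in WT and 8.29, 8.45, 8.22, 8.15 and 8.15 in ENK KO, overlapping through ENK KO 6 and WT 34. Without the library labelled spleen ENK KO 28, Irf8 was at -0.26 (limma adjusted p = 0.433). None of the 38 pathway genes tested was called between the genotypes without it either. At an unadjusted limma p under 0.05 with all arrays, Stat3, Ifngr1, Ifna14, Socs1, Socs3 and Irf8 were lower in spleen ENK KO. Tlr7 and Pias1 were higher, where 8.37% of all tested genes passed. Without that library 9 of the 38 passed, against 9.72% of all tested genes. Pias1 was higher on every spleen ENK KO array than on every WT array, as were 0.894% of all tested genes.

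Within a tissue, the members varied more from array to array than most genes did. Over the 9 spleen arrays the range of a member had a median of 0.61 on the log2 scale, from 0.13 to 1.80, against a median of 0.32 over all tested genes, and 27 of the 30 members were above that median. Without the library labelled spleen ENK KO 28 the medians were 0.51 and 0.29, again with 27 of 30 members above. Over the 5 thymus arrays they were 0.33 and 0.17, with 24 of 30 above. Within groups, the median SD of the members was 0.15 in thymus WT, 0.05 in thymus ENK KO, 0.18 in spleen WT and 0.20 in spleen ENK KO, against 0.06, 0.03, 0.08 and 0.10 over all tested genes.

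The variation was shared by many members on the same arrays. Spleen ENK KO 25, from the mouse of 9 months, was the highest of the 9 spleen arrays in 15 of 30 members (50.0%), against 12.6% of all tested genes, and was above the spleen mean in 27. Examples were Ifit3 at 9.41, Oas2 at 8.95, Xaf1 at 9.07 and Mx1 at 7.32, while Samhd1 was at its lowest there. Spleen WT 22 was the lowest in 10 of 30 members (33.3%), against 7.65% of all tested genes, and was below the spleen mean in 29. It held the lowest Ifit1 (7.52), Usp18 (9.24), Oas2 (7.64) and Stat2 (8.69), and Gbp3 was the 1 member above the mean there. Among the other arrays, WT 40 was highest in 7 members (23.3%, against 21.0% of all tested genes), and WT 34 and ENK KO 6 were lowest in 6 each, against 13.8% and 10.8% of all tested genes.

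The library labelled spleen ENK KO 28 was the highest in 4 members (Ifit2, Ifih1, Zbp1 and Samhd1) and the lowest in 4 (Ifit3, Oas3, Mx1 and Ifi35). Ifit2 and Ifit3, which are neighbours on chromosome 19 with no gene between them, stood at opposite ends there, Ifit2 at 9.16 and Ifit3 at 7.72. Without this library, spleen ENK KO 25 was highest in 17 members (56.7%) and spleen WT 22 lowest in 13 (43.3%). The 2 arrays at the extremes thus came 1 from each genotype.

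**Figure D4:**
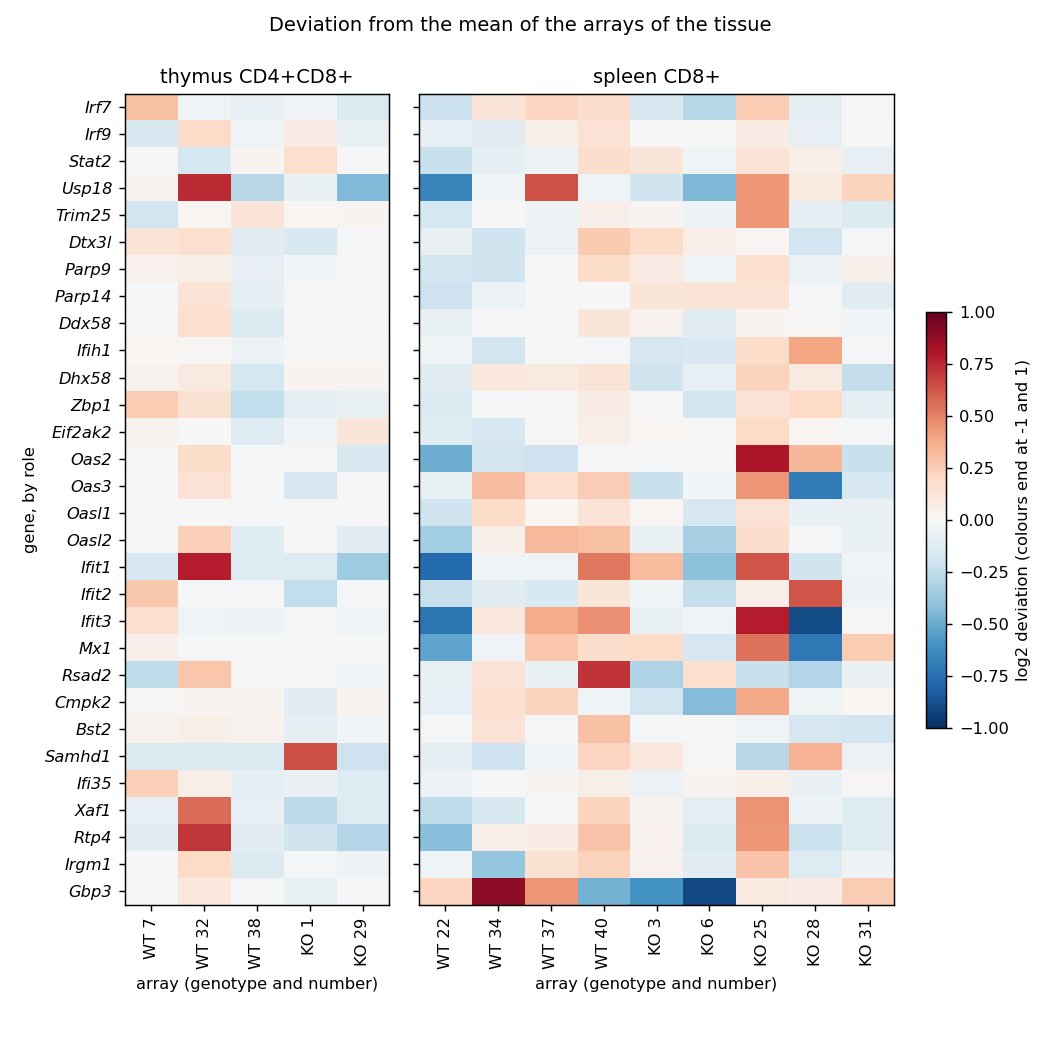
Deviation of each of the 30 tested members on each array from the mean of the arrays of its tissue, on the log2 scale, with red for above and blue for below and colours ending at -1 and 1. The column of spleen ENK KO 25 is above the mean in 27 members and that of spleen WT 22 below it in 29, while thymus WT 32 is above it in 23.

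**Figure D5:**
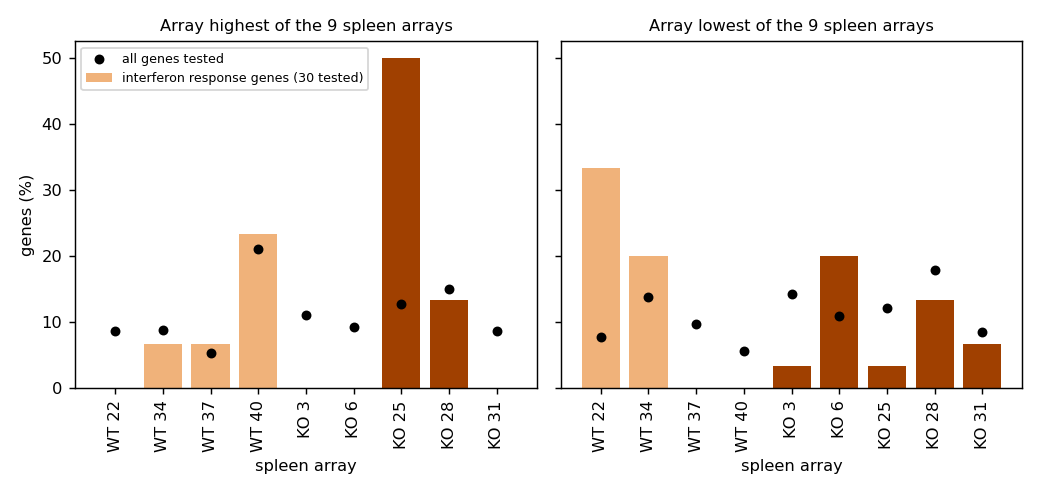
Share of the 30 tested members (bars) and of all tested genes (points) for which each spleen array was the highest (left) or the lowest (right) of the 9 arrays, in percent. Spleen ENK KO 25 was highest in 50.0% of members and 12.6% of all tested genes, and spleen WT 22 lowest in 33.3% and 7.65%.

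Markers of other cells also differed among the spleen arrays. The mean log2 level over 6 B cell markers was highest on spleen WT 22 (7.91) and ENK KO 6 (7.90) and lowest on ENK KO 25 (6.78), with the other spleen arrays between 7.10 and 7.52, and on the thymus arrays it was 6.66 to 6.76. Cd79a, a defining B cell gene, read 8.15 on spleen WT 22 and 6.09 on spleen ENK KO 25. Cd79b, another of the 6, was not higher in spleen, at 8.33 to 9.81 against 9.67 to 9.96 in thymus. Over 5 neutrophil markers the mean was 7.81 on ENK KO 6 and 6.19 to 6.38 on the others, and over 6 monocyte and macrophage markers it was lowest on ENK KO 25, at 6.76, against 6.83 to 7.16. Plasmacytoid dendritic cells are known as strong producers of type I interferon. Over 5 of their markers the mean lay between 7.60 and 7.85 on the spleen arrays and between 7.92 and 8.01 on the thymus arrays. These 5 went both ways. Tcf4 (9.75 to 9.86 in thymus, 7.38 to 7.78 in spleen) and Siglech were lower in spleen. Pacsin1 (7.72 to 8.29 in thymus, 8.87 to 9.13 in spleen) and Cox6a2 were higher, and Spib overlapped. For 6 markers of conventional dendritic cells the mean was 6.56 to 6.76 in spleen and 6.37 to 6.49 in thymus. Zbtb46 went the other way (6.80 to 7.09 in spleen, 7.14 to 7.19 in thymus), and Clec9a stayed under the filter level on every array. Alas2, the 1 measured red cell marker, read 7.26 on ENK KO 25 and 8.06 to 9.09 on the other spleen arrays, and 6.56 to 6.92 in thymus. Over 5 platelet markers the mean was 7.37 to 7.59 in spleen WT and 7.03 to 7.20 in spleen ENK KO without 28. It was 7.65 on ENK KO 28, where Itgb3 read 10.09, and 6.44 to 6.51 in thymus. Ppbp read 7.70 to 8.46 in spleen WT and 6.49 to 7.26 in spleen ENK KO. Of the 4 platelet markers tested, limma called 1 lower in spleen ENK KO than WT, against 0.00733% of all tested genes. Over 5 NK cell markers the mean was 6.18 to 6.90 in spleen and 5.59 to 5.64 in thymus. The NK mean differed mainly through Eomes, at 5.49 to 5.62 in thymus and 10.27 to 10.82 in spleen, or 7.34 on ENK KO 28. Ncr1, Klrb1c and Klra8 stayed under the filter level on every array. Of these, Klrb1c was lower in spleen, at 4.54 to 5.25 against 5.32 to 5.75, and Klra8 higher. The part of these cells in the interferon response values was not tested.

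In thymus the array that stood out was WT 32, the highest of 5 in 17 members (56.7%), against 16.6% of all tested genes. Its values of Usp18 (8.38), Ifit1 (7.25), Rtp4 (8.19) and Xaf1 (7.87) lay 0.64 to 0.91 above the next array. WT 38 was lowest in 11 members (36.7%, against 16.5%), and each ENK KO array in 7 (23.3%). The 2 most distant thymus arrays were thus both WT.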

How the data were processed

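RNA of sorted lymphocytes was measured on 14 single-channel Affymetrix arrays. The authors deposited 1 table of log2 values of 28213 probe sets, made by RMA per the submitters' processing notes. No source used here gives the software version or the annotation behind RMA. Arrays have no read depth, and their number limits the precision. RMA puts all arrays on 1 distribution, so a shift shared by most genes cannot be seen. The platform annotation names 1 gene symbol for 21640 probe sets, several for 1321 and none for 5252. Of the single symbols, 21553 were found in RefSeq by gene ID, and 0 changed.

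Groups came from the sample titles, and arrays are named by genotype and the number in the title. The members and all lists of pathway and marker genes were chosen with earlier results of these data known, so their counts are descriptions. Every member was named, and each array's values are given for the member with the largest difference in its role group, with a few more chosen after their values were seen (Stat2, Mx1, Bst2). limma 3.58.1 in R 4.3.3 was fitted to the 13641 tested genes with 1 mean per group and a spread shared by all groups (eBayes with trend), with Benjamini-Hochberg adjustment over all tested genes and a threshold of 0.05. Errors after ± are limma standard errors, and n is 3, 2, 4 and 5 arrays for thymus WT, thymus ENK KO, spleen WT and spleen ENK KO. The code was tested on simulated data. The alternatives were other filters, normalizations, variance models, thresholds and probe set summaries, age and sex terms, subsets of arrays, and leaving out each array in turn.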

Additional observations from a re-analysis of the deposited data

Results flagged for a closer look

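In 4 cases a single array stood apart from the rest of its group, by a gap that took up most of the group's whole range. Dhx58 read 7.60 on spleen WT 22, against 7.81 to 7.84 on the other 3 spleen WT arrays. On spleen ENK KO 25, Trim25 read 9.88, against 9.31 to 9.47 on the other 4 arrays of the group, Xaf1 read 9.07, against 8.50 to 8.65, and Eif2ak2 read 8.03, against 7.82 to 7.85. Chance flags about 1 in 20 groups. Over all tested genes the same measure picked out an array in 13.6% of genes in spleen WT and 14.9% in spleen ENK KO, and among the 31 measured members in 1 and 3 genes.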

How the results depend on the processing

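The counts of members called kept within 1.5 times their main values under every alternative that was run. Over 30 alternatives for each tissue comparison, between 23 and 29 members were called in WT and between 23 and 29 in ENK KO (27 to 29 and 27 to 28 when single arrays were left out). The count was 0 in thymus over 30 alternatives, 0 in spleen over 31 and 0 for the difference of the genotype effects over 29. Of 898 member values in each tissue comparison, 19 lost and 9 gained a call in WT, and 20 lost and 2 gained one in ENK KO, with none reversed. Trim25, Ifit2, Rsad2, Eif2ak2, Oasl1 and Oas3 were among the members that changed, and their causes were not tested. The fold limit of 1.5 removed members with small differences, such as Bst2 and Stat2. Among values never called, the sign changed in 38 of 898 in thymus and 73 of 928 in spleen, and the median of the members in spleen lay between -0.07 and 0.07. It was -0.05 without spleen WT 22 and -0.07 without both spleen WT 22 and spleen ENK KO 25, an alternative chosen after seeing the data, as was the fit of the spleen arrays alone without ENK KO 28. No paired analysis was possible because no replicate number occurs in more than 1 group. Signal over background limits the lowest members, since no detection call was used here.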
